A study of Mus musculus with 10 samples.

Results

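The genes encoding 10 subunits of the SWI/SNF complex were examined in chromatin immunoprecipitation followed by sequencing (ChIP-seq) of AB17 cells, out of 21938 annotated protein-coding genes. The members were chosen by name: Arid1a, Arid1b, Arid2, Smarca2, Smarca4, Smarcb1, Smarcc1, Smarcc2, Smarcd1 and Smarce1. A locus ran from 20 kb upstream of a gene to 20 kb downstream in mm10. AB17 is an immortalized line of primary hepatocytes from an Arid1a fl/fl mouse, and cells of both genotypes carried SV40 large T antigen and H-Ras V12D. Wildtype (WT) cells had received an adenovirus with GFP (Ad-GFP) and knockout (KO) cells one with Cre recombinase (Ad-Cre), which removes the eighth exon of Arid1a according to the study's methods. The cells are therefore a transformed line from 1 source, and the age of the mouse was not given in the sources used here. Peak lists of 8 samples were analysed, namely Brg1, Arid1a, Ctcf and Rad21 in WT cells, and H3K9me3 and H3K27me3 in WT and KO cells. The 2 inputs entered only through the authors' peak calling. There was 1 library per group, so no spread between replicates and no p-value can be given, and all comparisons are between libraries. Binding in fewer cells and weaker binding in every cell cannot be told apart in such bulk samples.

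SWI/SNF complexes use the energy of ATP to slide or evict nucleosomes. Either Smarca4 (which encodes Brg1) or Smarca2 (which encodes Brm) is the ATPase. Arid1a and Arid1b are alternative subunits of the canonical complex, whereas Arid2 belongs to the Polybromo-containing form. Smarcc1 and Smarcc2 form the scaffold on which the complex is assembled, and Smarcb1, Smarcd1 and Smarce1 are core or accessory subunits. Ctcf and the cohesin subunit Rad21 mark loop anchors and domain borders, H3K9me3 marks constitutive heterochromatin, and H3K27me3 is deposited by Polycomb complexes.

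Each list gave 1 summit per peak with its −log10 q-value, which grows with confidence and depth within a library and is not a scale shared between libraries. The lists held between 70408 summits (Arid1a) and 143835 summits (WT H3K9me3). Read depth is unknown from the lists. A summit within 2 kb of any annotated transcript start of the gene was placed at the start, one elsewhere between the gene's ends in the body, and the rest in the flank. Intervals are 95% intervals for counting error only.

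The reference sequence under the strongest Brg1 or Arid1a summit at the start is shown for 7 of the 10 members, because these are places where the lists put the complex at genes of its own subunits. The first 5 are rich in CpG dinucleotides and the last pair, at Smarcd1 and Smarce1, poor in them, and they were picked for this contrast after all 10 windows had been seen. Each run has 61 bases centred on the summit, is written along the gene's strand in mm10, and has its CpG dinucleotides in capitals.
Arid1a, chr4:133756915-133756975, minus strand, Brg1, 176 bp upstream of the outermost start: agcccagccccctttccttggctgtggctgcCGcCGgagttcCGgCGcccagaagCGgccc
Arid1b, chr17:4994117-4994177, plus strand, Brg1, 185 bp upstream of the outermost start: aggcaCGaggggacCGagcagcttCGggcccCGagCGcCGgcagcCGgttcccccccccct
Smarca4, chr9:21616452-21616512, plus strand, Brg1, in an intron 218 bp past a start: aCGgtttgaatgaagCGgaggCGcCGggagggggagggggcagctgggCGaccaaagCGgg
Smarcb1, chr10:75921327-75921387, minus strand, Brg1, in a coding exon 232 bp past a start: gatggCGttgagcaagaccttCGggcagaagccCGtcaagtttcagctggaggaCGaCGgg
Smarcc2, chr10:128459302-128459362, plus strand, Arid1a, in a coding exon 11 bp past a start: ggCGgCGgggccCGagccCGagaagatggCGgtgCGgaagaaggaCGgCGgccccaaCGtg
Smarcd1, chr15:99701930-99701990, plus strand, Brg1, 169 bp upstream of a start: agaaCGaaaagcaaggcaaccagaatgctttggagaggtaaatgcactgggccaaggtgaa
Smarce1, chr11:99222300-99222360, minus strand, Brg1, in an intron 1499 bp upstream of an inner start: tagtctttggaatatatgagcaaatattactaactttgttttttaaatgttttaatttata
The first 5 windows had 5 to 9 CpG dinucleotides and a GC content between 60.7% (Smarcb1) and 78.7% (Arid1b), and the Arid2 window had 6 and 77.0%. The Smarcd1 window had 1 CpG dinucleotide and a GC content of 47.5%. The windows of Smarca2 (36.1% GC), Smarcc1 (49.2%) and Smarce1 (18.0%) had 0. RefSeq promoter sequences (GRCm38) of 300 bases were at hand for 8 of the 10 members, with 9 promoters. Their GC content ran from 60.7% to 81.0% against a median of 52.7% over 32851 promoters, and they held 22 to 48 CpG dinucleotides against a median of 7.

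Brg1 was present at the start of each member in the WT list. A Brg1 summit lay within 2 kb of an own start in 10 of the 10 members, against 45.7% of all protein-coding genes. An Arid1a summit was found at 7 of the 10 starts, against 41.8% of coding genes, and was missing from the list at Arid1b, Smarcd1 and Smarce1. The same 7 members carried Brg1 and Arid1a together, against 33.0% of coding genes. Ctcf was found at 9 of the 10 members, all except Smarca4, against 50.9%, and Rad21 at 10 of the 10, against 57.0%. All 4 proteins were found at the starts of 6 members (Arid1a, Arid2, Smarca2, Smarcb1, Smarcc1 and Smarcc2), against 24.0% of coding genes.

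The number of annotated starts moves with these shares. Members had 3 to 7 annotated starts, apart from Smarca2 with 42, and among the 9722 coding genes with 3 to 7 starts the shares were 53.8% for Brg1, 49.4% for Arid1a, 59.2% for Ctcf and 66.8% for Rad21. With the outermost start alone, Brg1 was at 9 members and 39.6% of coding genes, Arid1a at 6 and 35.2%, Ctcf at 8 and 42.5%, and Rad21 at 9 and 50.6%. Most of the Brg1 and Arid1a summits were weak. With −log10 q of at least 5, Brg1 was at the starts of 4 members (Arid1b, Smarca2, Smarca4 and Smarcc2) and 7.35% of coding genes, and Arid1a at 1 member (Smarcc2) and 5.03% of coding genes.

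**Figure D1:**
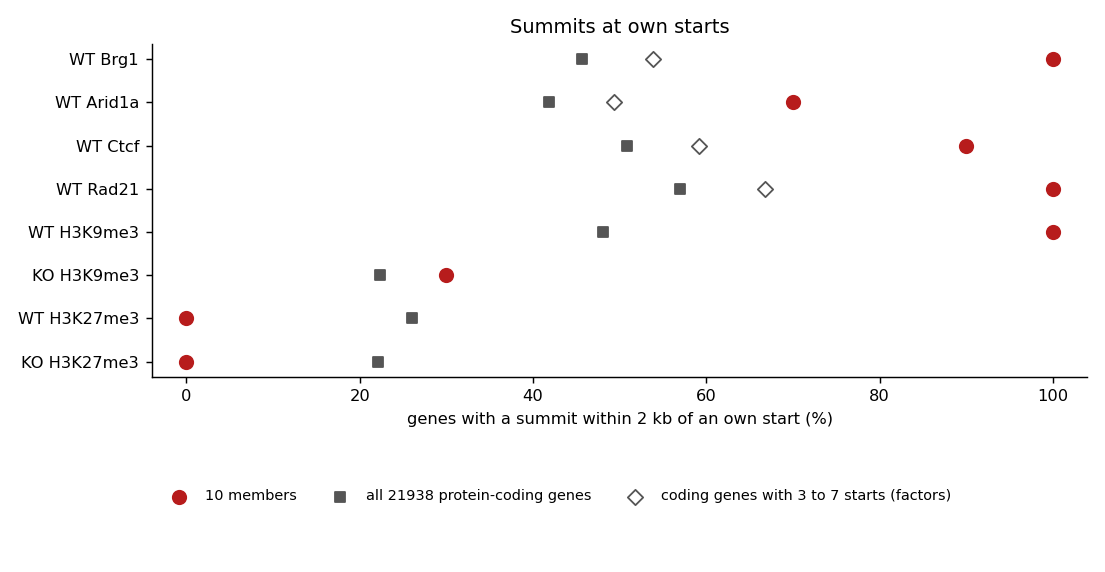
Percentage of genes with at least 1 summit within 2 kb of an own annotated start, for each of the 8 lists (1 library each). Circles are the 10 members, squares all 21938 protein-coding genes and open diamonds the 9722 coding genes with 3 to 7 starts (Brg1, Arid1a, Ctcf and Rad21 only). The 10 members stand at 100% for Brg1, Rad21 and WT H3K9me3 and at 0% for H3K27me3 in both genotypes.

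Over the 1.42 Mb of the 10 loci, the WT lists held 122 Brg1, 93 Arid1a, 135 Ctcf and 143 Rad21 summits. This was 8.58 Brg1 summits per 100 kb, against 5.10 over all coding loci built the same way. For Arid1a it was 6.54 against 4.41, for Ctcf 9.49 against 6.43, and for Rad21 10.1 against 6.91. Of the Brg1 summits 27 lay at starts, 55 in bodies and 40 in flanks. The members differed widely in density, with Brg1 between 3.31 summits per 100 kb at Arid1b and 18.2 at Smarcc2, and Rad21 between 4.07 at Arid1b and 34.7 at Smarcd1.

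Among the ARID subunits, Arid1a (chromosome 4, 133679008 to 133756769, minus strand) had 11 Brg1 summits (Poisson interval 5.49 to 19.7), 13 Arid1a summits, 8 Ctcf summits and 16 Rad21 summits in its locus. Its own product was thus listed at its own gene. The strongest Brg1 summit at the start reached 4.21 at 176 bp upstream, and the strongest Arid1a summit at a start reached 3.67 in a coding exon, 577 bp past an inner start. In an intron downstream, a Brg1 summit of 3.70 lay 6 bp from a Rad21 summit of 6.90. The strongest factor summits of this locus were not at Arid1a but in the 3′ flank at the start of the neighbouring gene Pigv, with Ctcf at 75.4 and Rad21 at 68.0 lying 20 bp apart. Brg1 (5.20) and Arid1a (5.31) summits lay near the same neighbouring start.

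Summit lists hold no reads, so the deletion could not be checked directly. The eighth exon of Arid1a, at 133693758 to 133694070 in all 3 annotated coding transcripts of 20 exons, had 0 summits within 1 kb in each of the 8 lists. The nearest summits were WT H3K9me3 at 1911 bp, Brg1 at 3481 bp and KO H3K9me3 at 3875 bp. The genotype of these libraries therefore rests on the labels here, while the study reports PCR and Western blotting of the knockout in AB17 cells.

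Arid1b (chromosome 17, 4994332 to 5347656, plus strand) is the longest member, and its locus had 13 Brg1, 11 Arid1a, 19 Ctcf and 16 Rad21 summits. Its start carried the strongest Brg1 summit at any start of the 10 members, 5.96 at 185 bp upstream, with Ctcf 291 bp and Rad21 392 bp away. No Arid1a summit lay within 2 kb of an Arid1b start, the nearest to the Brg1 summit being 2689 bp off. The strongest Arid1a summit of the locus was deep in an intron (5.44) and had a Brg1 summit 49 bp away, and the intronic Ctcf summit of 27.8 had one 119 bp away.

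Arid2 (chromosome 15, 96287518 to 96404992, plus strand) had 27 Brg1 summits (interval 17.8 to 39.3), the most of any member, with 14 in the body and 11 in the flanks. It had 13 Arid1a, 8 Ctcf and 14 Rad21 summits. Upstream of the start the 4 proteins lay in a row, with Brg1 (4.94) and Arid1a (2.71) 93 bp apart at 1772 and 1865 bp upstream, and Ctcf (60.6) and Rad21 (6.68) 3 bp apart at 783 and 780 bp upstream.

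Of the ATPase genes, Smarca4 (chromosome 9, 21616169 to 21704230, plus strand) had 7 Brg1 and 7 Arid1a summits. Brg1 was thus listed at the gene that encodes it. At its start, a Brg1 summit of 5.20 in an intron lay 166 bp from an Arid1a summit of 4.22 in an untranslated region, and a weaker pair (2.54 and 2.23) lay 35 bp apart further upstream. Smarca4 was the only member with 0 Ctcf summits at a start, although its locus held 20 Ctcf and 18 Rad21 summits, 18 and 10 of them in the body. The strongest Ctcf summit (63.1) was 13998 bp upstream with a Rad21 summit of 25.6 at 67 bp. A Ctcf summit entered the start class when the window was widened to 5 kb.

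Smarca2 (chromosome 19, 26605050 to 26778322, plus strand) had 19 Brg1, 19 Arid1a, 14 Ctcf and 14 Rad21 summits. With 42 annotated starts, 8 of its Brg1 and 8 of its Arid1a summits were at a start, most of them at inner starts. The strongest Brg1 summit (5.20) lay 15 bp past an inner start, 423 bp from the strongest Ctcf summit (31.5), which had the strongest Rad21 summit (15.5) at 80 bp. At the outermost start, a Brg1 summit of 4.21 lay 351 bp past a start and an Arid1a summit of 3.07 lay 537 bp upstream.

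**Figure D2:**
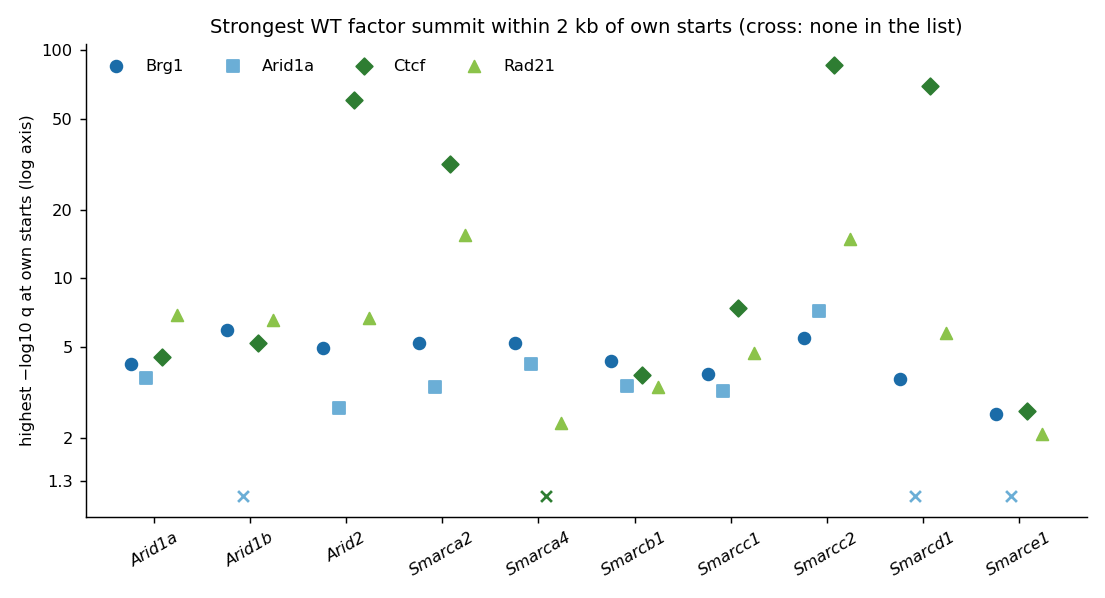
Highest −log10 q of a Brg1, Arid1a, Ctcf or Rad21 summit within 2 kb of an own start of each member in WT cells (1 library per protein, log axis). Crosses stand for no summit in the list. Brg1 lies between 2.56 and 5.96 in all 10 members, while Ctcf spans 2.64 (Smarce1) to 85.4 (Smarcc2).

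Among the scaffold genes, Smarcc2 (chromosome 10, 128459248 to 128490482, plus strand) had the strongest start. Its Ctcf summit of 85.4 was 74 bp upstream, a Rad21 summit of 14.9 was 112 bp upstream, and an Arid1a summit of 7.16 was 11 bp past a start in a coding exon, the highest Arid1a value at any start of the 10 members. The strongest Brg1 summit at the start (5.50) was 788 bp past a start in an intron. The locus held 13 Brg1, 8 Arid1a, 15 Ctcf and 13 Rad21 summits, and 8 of the Brg1 summits were in the flanks, 5 of these at a neighbour's start. The highest Arid1a value of all 10 loci, 7.60, was also in this flank, near the starts of the myosin light chain genes Myl6 and Myl6b, with Brg1 (5.86) 269 bp away.

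Smarcc1 (chromosome 9, 110117708 to 110240178, plus strand) had 14 Brg1, 9 Arid1a, 24 Ctcf and 10 Rad21 summits. The strongest Brg1 summit at its start (3.83, 937 bp upstream) was also within 2 kb of a start of the neighbour Dhx30, so the genes share it. Its only Arid1a summit at a start (3.22) was in a coding exon, 151 bp past an inner start. Ctcf was spread along the body with 18 summits, the strongest of the locus (60.1) lying at Dhx30 with Rad21 at 28 bp.

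Smarcb1 (chromosome 10, 75896769 to 75921617, minus strand) had 8 Brg1, 7 Arid1a, 8 Ctcf and 19 Rad21 summits, with 14 of the Rad21 summits in the flanks and 8 of those at a neighbour's start. Around the outermost start, Brg1 and Arid1a formed close pairs at 40 bp (4.34 and 3.37) and at 137 bp (3.74 and 2.25), each with Rad21 within 141 bp. A Ctcf summit of 43.7 with Rad21 at 11 bp lay inside a coding exon near the 3′ end.

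Smarcd1 and Smarce1 had the fewest summits of their own complex by count, in the shortest loci (51.9 and 62.0 kb). Per 100 kb, Brg1 was 11.6 at Smarcd1 and 6.45 at Smarce1, with 5.10 over all coding loci. Arid1a was 3.86 and 6.45, with 4.41 over all coding loci. Smarcd1 (chromosome 15, 99702129 to 99713991, plus strand) is the shortest member and had 6 Brg1, 2 Arid1a, 13 Ctcf and 18 Rad21 summits. At its start, Brg1 (3.62) lay 109 bp from a Ctcf summit of 69.6 and 55 bp from a Rad21 summit, with the nearest Arid1a summit 23936 bp away. In the flank, Brg1 lay 16 bp from a Ctcf summit of 57.2. Smarce1 (chromosome 11, 99209047 to 99231017, minus strand) had 4 Brg1, 4 Arid1a, 6 Ctcf and 5 Rad21 summits. Its only Brg1 summit at a start was the weakest of the members (2.56), lay 1499 bp upstream of an inner start, and was lost with the outermost start alone, with a 1 kb window and with −log10 q of at least 3.

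**Figure D3:**
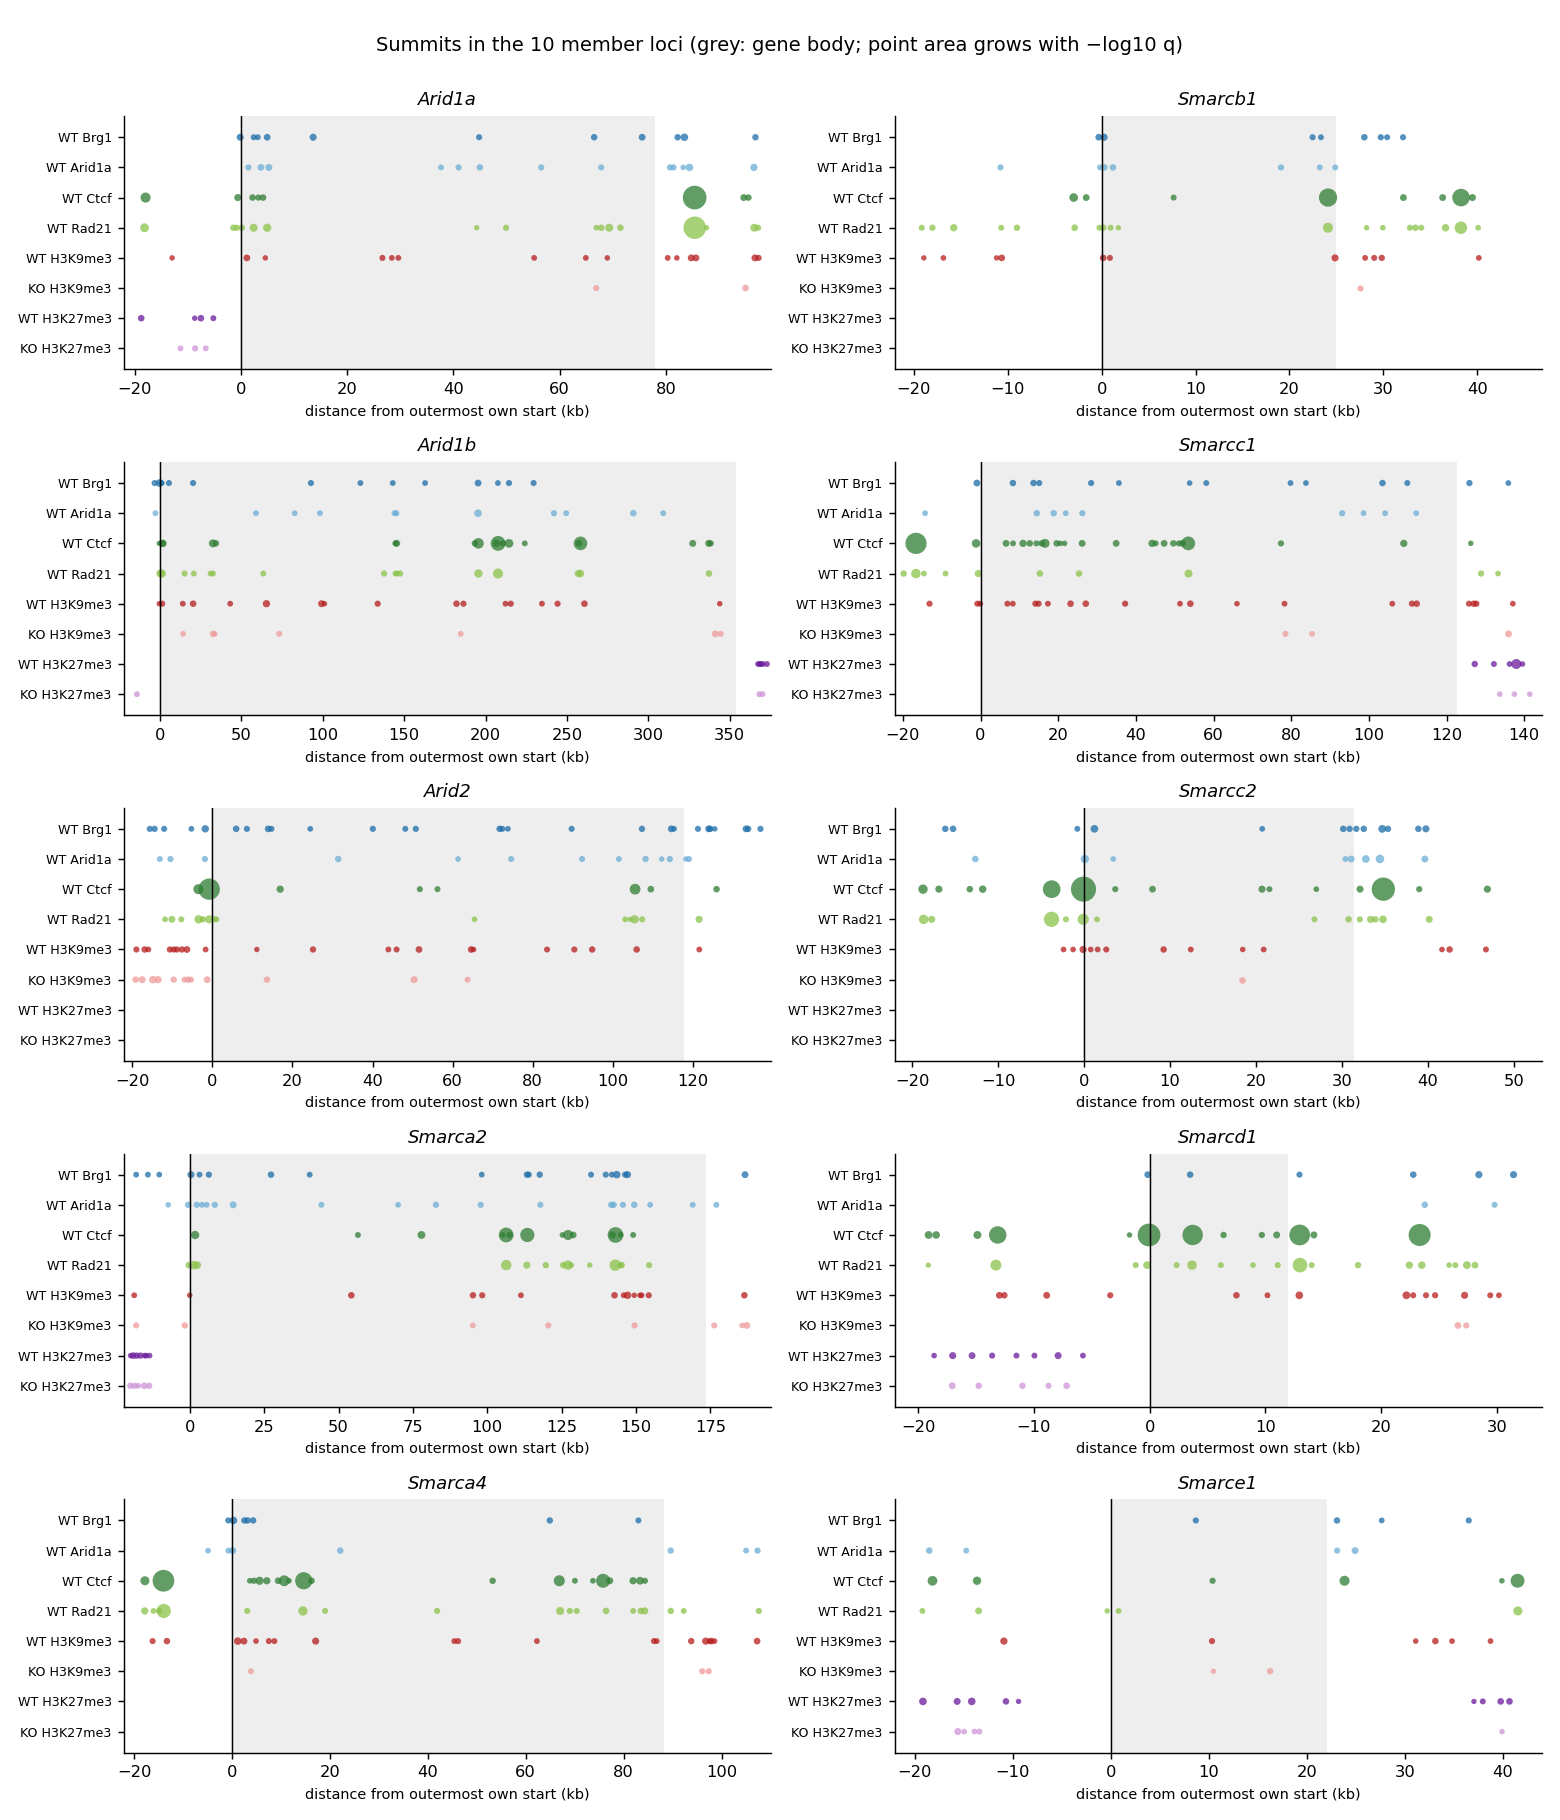
Summits of the 8 lists in each of the 10 loci by distance in kb from the outermost start, along the gene's strand. The grey band is the gene body, the flanks extend 20 kb, each row is 1 list and point area grows with −log10 q. H3K27me3 summits lie outside the grey bands, and KO H3K9me3 rows hold fewer points than WT rows in each locus.

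In the full lists, Brg1 and Arid1a summits stood together about as often in the member loci as elsewhere. Of 122 Brg1 summits, 32.8% (Wilson interval 25.1 to 41.5) had an Arid1a summit within 1 kb, against 31.1% over all coding loci, and of 93 Arid1a summits 40.9% (31.4 to 51.0) had a Brg1 summit, against 35.1%. With −log10 q of at least 3 in both lists, 17 of 55 Brg1 summits had an Arid1a summit (30.9%), against 21.2% over all coding loci. Rad21 summits had a Ctcf summit in 52.4% of cases, against 53.4%. Between the complexes, 35.0% of the Rad21 summits had a Brg1 summit within 1 kb, against 24.2% over all coding loci, and 40.2% of the Brg1 summits had a Rad21 summit, against 30.9%. Neighbouring summits are not independent, and these shares fall with the distance allowed. Brg1 was denser in the member loci than over all coding loci (8.58 against 5.10 per 100 kb), as was Rad21 (10.1 against 6.91). A denser partner list gives more pairs by itself, here and for the H3K9me3 pairs below, and this was not corrected for.

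The strong Ctcf summits of the loci mostly coincided with cohesin. All 23 member Ctcf summits with −log10 q of at least 20 had a Rad21 summit within 1 kb, with a median distance of 55 bp, against 97.9% of the 16434 such summits in the whole list. A Brg1 summit lay within 1 kb of 12 of the 23 (52.2%, interval 33.0 to 70.8), against 23.1% of the whole list, and an Arid1a summit within 1 kb of 6 of them (26.1%), against 17.0%. The whole list is not limited to coding loci, so these 2 shares are not set against loci of like Brg1 or Arid1a density. A match to the Ctcf consensus on either strand lay within 100 bp of 9 of the 135 member Ctcf summits (6.67%, interval 3.55 to 12.2), against 7.35% of the whole list. The windows of 5 strong matches are given because they show the letters matched at strong Ctcf summits with Rad21 beside them. They are not the 5 strongest, as a further Smarcd1 flank match (Ctcf 39.8, Rad21 160 bp away) is not shown. The weak matches in Smarcc1 (Ctcf 8.42) and the Smarcc2 flank (4.51) had the nearest Rad21 summit 1335 and 6764 bp away. Each run has 40 bases on the strand of the match in mm10, with the match in capitals.
Smarcc1 flank, chr9:110101090-110101129, minus strand, Ctcf 60.1 and Rad21 28 bp away: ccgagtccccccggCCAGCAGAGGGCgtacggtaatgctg
Smarcd1 flank, chr15:99715045-99715084, plus strand, Ctcf 57.2 and Rad21 29 bp away: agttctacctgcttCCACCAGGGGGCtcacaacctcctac
Smarcb1 coding exon, chr10:75897489-75897528, plus strand, Ctcf 43.7 and Rad21 11 bp away: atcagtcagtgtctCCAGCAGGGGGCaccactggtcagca
Smarcc2 flank, chr10:128455511-128455550, minus strand, Ctcf 40.9 and Rad21 18 bp away: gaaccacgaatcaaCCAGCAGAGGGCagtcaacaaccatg
Arid1b intron, chr17:5202036-5202075, plus strand, Ctcf 27.8 and Rad21 74 bp away: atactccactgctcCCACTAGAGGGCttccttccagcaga
The Smarcd1 and Arid1b sites also had a Brg1 summit close by, at 16 and 119 bp. The strong Ctcf summits at the starts of Smarcc2, Smarcd1 and Arid2 were not among the 9. The AP-1 motif TGANTCA, searched on both strands, lay within 100 bp of 4.10% of the member Brg1 summits (interval 1.76 to 9.24) against 7.39% of the whole list, and of 9.68% of the Arid1a summits (5.18 to 17.4) against 6.55%. It was in 2 of the 9 member promoters and in 7.81% of all promoters.

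H3K9me3 summits were fewer in KO than in WT cells at each member. Over the 10 loci, 152 summits were counted with Ad-GFP and 41 with Ad-Cre, a KO to WT ratio of 0.270 (exact interval 0.186 to 0.383), while the ratio summed over all coding loci was 0.651 and that of the whole lists was 0.938. More WT than KO summits were counted in 10 of the 10 members, against 60.0% of coding genes, and at least 2 times as many in 8 of the 10, against 44.0%. The count of 10 fell to 9 with a 50 kb flank, with no flank and with −log10 q of at least 3. With −log10 q of at least 5 it fell to 3, where 4 WT and 1 KO summits were left over the 10 loci (ratio interval 0.00508 to 2.53, which includes 1). Each member had 6 or more WT summits, and among the 10022 coding genes with at least 6 the corresponding shares were 84.2% and 58.4% and the ratio 0.570. Among the 10019 coding genes with a Brg1 summit at a start the ratio was 0.540, against 0.839 in the 11919 without one. The members had many WT summits, 10.7 per 100 kb against 7.48 over all coding loci, and few KO summits, 2.88 against 4.87.

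For the ARID subunits the WT and KO counts were 15 and 2 at Arid1a, 17 and 7 at Arid1b, and 21 and 12 at Arid2. For the ATPases they were 19 and 3 at Smarca4 and 14 and 8 at Smarca2. For the scaffold genes they were 22 and 3 at Smarcc1 and 13 and 1 at Smarcc2, and for the other subunits 11 and 1 at Smarcb1, 14 and 2 at Smarcd1 and 6 and 2 at Smarce1. The 95% interval of the ratio stayed below 1 in 6 members and reached above 1 in Arid1b, Arid2, Smarca2 and Smarce1. The ratios by member ran from 0.0769 at Smarcc2 to 0.571 at Arid2 and Smarca2. Arid2 was the locus with most summits, and without it the ratio of the others was 0.221.

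The lower KO count was seen in each position class. At the starts, 26 WT summits stood against 5 in KO cells (0.192, interval 0.0577 to 0.509), where all coding genes gave 0.354. In the bodies it was 65 against 17 (0.262, with 0.780 over all coding genes), and in the flanks 61 against 19 (0.311, with 0.633). Each of the 10 members had a WT H3K9me3 summit at a start, against 48.1% of coding genes, and 3 had one in KO cells (Arid2, Smarca2 and Smarce1), against 22.4%. On the 7 chromosomes that carry the members, the ratio over all coding loci ran from 0.458 to 0.660.

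The WT H3K9me3 summits of the members were mostly weak, as those of the whole list were, with a median of 2.64 there. The highest value at a start was 5.09 in Smarca2 and in Smarca4, followed by 4.43 at Smarcc2, and the highest of any locus was 5.71 in the flank of Smarcd1. At Smarcb1, a WT H3K9me3 summit (3.51) and a Rad21 summit (3.36) had the same position, 131 bp past a start. Of the 152 WT summits, 28.9% (interval 22.3 to 36.6) had a Brg1 summit within 1 kb, against 18.1% over all coding loci, and 34.9% (27.8 to 42.7) had a Rad21 summit, against 21.6%. Of the 41 KO summits, 34.1% (21.6 to 49.5) lay within 1 kb of a WT Brg1 summit, against 9.27%. Many of these were at Arid2, which had 12 KO summits and 27 Brg1 summits, the most of any member in both lists. The share was not computed without Arid2, and its interval treats neighbouring summits as independent. Without the summits within 1 kb of WT Brg1 or Rad21 the members had 83 WT and 20 KO summits, a ratio of 0.241 where all coding loci gave 0.834. Without the summits near any coding gene start they had 108 and 35, a ratio of 0.324 where all coding loci gave 0.763. Both exclusions were chosen after the data were seen.

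The KO summits of the members were unevenly spread. Arid2 held 12 of the 41, and 8 of these formed a string in its 5′ flank between 19167 and 5343 bp upstream, the strongest (5.28) at 14869 bp upstream. WT summits were present in the same flank, the strongest reaching 3.79, a value of another library that cannot be ranked against the KO one. A further KO summit of 3.80 lay 1301 bp upstream of the Arid2 start. Of the 41 KO summits 53.7% (interval 38.7 to 67.9) had a WT summit within 1 kb, against 35.1% over all coding loci, and of the 152 WT summits 15.1% (10.3 to 21.7) had a KO summit, against 26.1%. Repeat-masked bases lay under 32.2% of the WT summits (interval 25.3 to 40.0) and 36.6% of the KO summits (23.6 to 51.9), against 39.9% and 51.3% of the whole lists.

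**Figure D4:**
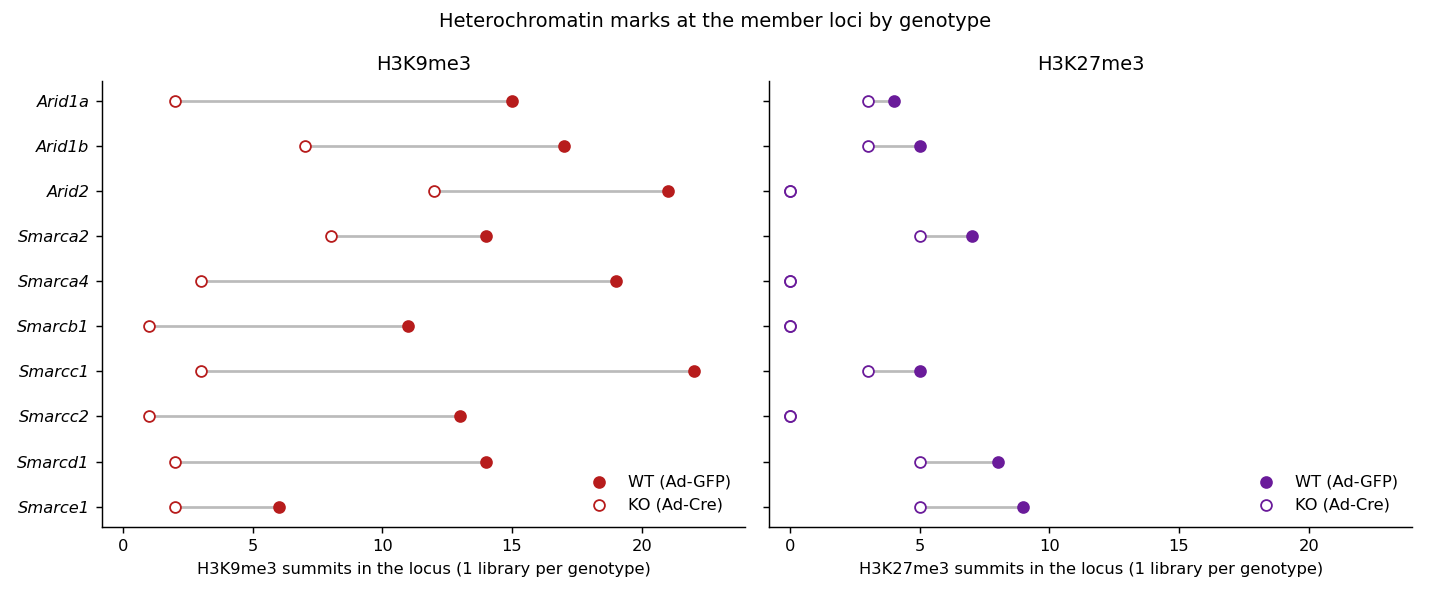
H3K9me3 (left) and H3K27me3 (right) summits in the locus of each member, with 1 library per genotype. Filled circles are WT, open circles KO, and grey lines join them. H3K9me3 counts are lower in KO at 10 of 10 members, from 22 and 3 at Smarcc1 to 6 and 2 at Smarce1, and H3K27me3 counts are 0 in both genotypes at 4 members.

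No H3K27me3 summit was listed at the start or in the body of any member in either genotype. No member had a WT H3K27me3 summit at a start, against 26.0% of coding genes, and none had a KO summit there, against 22.1%. These shares, too, were not split by the number of annotated starts. Counting starts and bodies together, 0 of 10 members had a WT summit, against 30.6%, and 0 of 10 a KO summit, against 25.8%. Arid2, Smarca4, Smarcb1 and Smarcc2 had 0 summits of either genotype in the whole locus, where a count of 0 has a Poisson upper limit of 3.69, and 44.1% of coding genes shared this. A list shows only what passed the peak caller, so weaker enrichment was not detectable here.

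The H3K27me3 summits of the other 6 members were all in the flanks, 38 in WT and 24 in KO cells, a ratio of 0.632 (interval 0.362 to 1.08) that included 1, with 0.782 over all coding loci and 0.785 for the whole lists. With summits within 3 kb merged, 8 WT and 10 KO summits were left, the direction turned (1.25) and 1 member had more WT than KO summits. More WT than KO summits were counted at 6 of the 10 members, against 37.9% of coding genes. The WT list was the longer one (109601 against 86050 summits), and with equal numbers of peaks the count was 3 of 10 and the ratio 0.889, with 0.967 over all coding loci. The WT and KO counts were 4 and 3 at Arid1a, 5 and 3 at Arid1b, 7 and 5 at Smarca2, 5 and 3 at Smarcc1, 8 and 5 at Smarcd1 and 9 and 5 at Smarce1. Several of these lay in or at neighbouring genes. The 8 WT summits of Smarcd1 lay upstream, the strongest (4.36) inside the acid-sensing ion channel gene Asic1 and 42 bp from a KO summit of 3.90. In the flank of Smarcc1, the strongest WT summit (11.2) lay inside Cspg5, a neural proteoglycan gene, and the 3 KO summits there reached at most 1.80. WT and KO values come from different libraries and are not ranked against each other. At Smarce1 the strongest WT summits (5.47) lay upstream, one of them at the start of the keratin gene Krt222. KO summits had a WT summit within 1 kb in 83.3% of cases (interval 64.1 to 93.3), against 69.1% over all coding loci.

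The other 21 genes of SWI/SNF complexes differed among themselves. Brg1 was at the start of 15 of the 21 (71.4%), and was missing from the list at Actl6b, Bcl11a, Bcl11b, Brd7, Dpf3 and Phf10. Arid1a was at 13 of the 21 and Rad21 at 16. A WT H3K27me3 summit was at the start of 8 of the 21, namely Actl6b, Bcl11a, Bcl11b, Brd7, Dpf1, Dpf3, Phf10 and Smarcd3, and a KO summit at 7 of these, all but Bcl11b. H3K9me3 summits were more numerous in WT than in KO loci of 17 of the 21, with a ratio of 0.431.

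For comparison, 11 genes of cohesin and Ctcf had Brg1 at 9 starts, Arid1a at 8 (72.7%), Ctcf at 8 (72.7%) and Rad21 at 10. Brg1 and Arid1a were together at 7 of them, and all 4 proteins at 5. These 11 genes had H3K27me3 at 0 starts in both genotypes, and more WT than KO H3K9me3 summits at 8, with a ratio of 0.698. Among 28 Polycomb genes Brg1 was at 21 starts, Arid1a at 22 (78.6%), Ctcf at 22 (78.6%) and Rad21 at 24. Brg1 and Arid1a were together at 17 of the 28, and all 4 proteins at 13. WT H3K27me3 was at 8 Polycomb starts (28.6%, near the 26.0% of all coding genes). H3K9me3 was more numerous in WT at 24 Polycomb genes, with a ratio of 0.460. Arid1a (7 of the 10 members) and Ctcf (9 of the 10) at a start were thus not particular to the members. Brg1 with Arid1a (7 of the 10) and all 4 proteins (6 of the 10) were also found at starts in each of the other lists. The differences between these lists and the members were not tested.

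Counted over the 8 lists, the genes most like Arid1a among 2892 coding genes with a locus of similar length were Wbp1l, Fbln2 and Nploc4, with Euclidean distances of 0.794, 1.02 and 1.04 between log2(summits + 1). The genes most like Smarca4 among 2583 were Ttc39b, Gm12216 and Dixdc1, at distances of 0.699, 0.746 and 0.761. All 8 counts entered the choice, so likeness in any of them is fixed by it.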

How the data were processed

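ChIP-seq of AB17 cells comprised 10 samples, and the peak lists of 8 were analysed. Per the submitters' processing notes and the study's methods, reads were aligned to mm10 with Bowtie2, filtered with SAMtools and Picard, and peaks were called by the authors with MACS2 against input. Versions are not given in the sources used here. The deposited lists give 1 summit per peak with a −log10 q-value assigned by the authors' MACS2 run, with no reads, widths or fold enrichment, so the read depth is unknown. Summits were placed with Python 3.11.15, numpy 2.4.6, pandas 2.3.3, scipy 1.17.1 and pysam 0.24.0 on GENCODE vM21 (GRCm38) genes, and 0 of 819399 summits lay beyond a chromosome end. Positions are 1-based.

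All 10 listed members entered the counts of summits. The strongest summit per list at the start and in the locus was found for each, and only some of these are given above. Of the other SWI/SNF genes, those without Brg1 or with H3K27me3 at a start were named, and the 3 most alike genes were those with the smallest distance over the 8 lists among loci within 25% of the same length. The members and lists were chosen with earlier results of these data known. With 1 library per group there was no test. Counts carry exact Poisson, ratios exact binomial and shares Wilson 95% intervals. Sums over all coding loci count a summit once for each locus that holds it. The counting was tested on simulated summits. Sequences are from the GRCm38 reference, and promoters from RefSeq.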

Additional observations from a re-analysis of the deposited data

How the results depend on the processing

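Of 47 alternatives, 37 left a result within 1.5 times the count, or within the 95% interval of the ratio or share. With −log10 q of at least 5, the members with a start summit fell to 4 for Brg1, 1 for Arid1a and 6 for Rad21, while the shares of coding genes fell to 7.35%, 5.03% and 26.8%, and the H3K27me3 ratio was 0 (3 WT and 0 KO summits). Merging summits within 3 kb turned the H3K27me3 ratio to 1.25 (8 WT and 10 KO). Strings of summits merge in both lists, and the cause of the turn was not tested. The Brg1 summits with Arid1a fell to 18.0% within 500 bp and 9.84% within 200 bp, as a narrower window allows fewer pairs, and the Rad21 summits with Ctcf to 39.2% and 31.5%. With −log10 q of at least 3 the Rad21 summits with Ctcf rose to 70.8%, against 60.6% over all coding loci (53.4% in the full lists). The Brg1 summits with Arid1a were then 30.9%, against 21.2% over all coding loci. The cause was not tested. The H3K9me3 ratio lay between 0.221 and 0.362 under all 10 alternatives run, of which that with −log10 q of at least 5 (0.250) rested on 4 WT and 1 KO summits and left 3 of 10 members lower in KO. With no flank, H3K27me3 gave no ratio, as both counts were 0.

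No paired analysis was possible because the labels give no replicate numbers and each group has 1 library. The genotype comparison therefore has no replicate check, and read depth and antibody yield, which set how many summits a library yields, are unknown. Broad marks called as narrow peaks give strings of summits, so counts of summits are not counts of domains.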
